A study of Mus musculus with 12 samples.

Results

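A set of 10 genes of the integrated stress response and of the unfolded protein response were followed through sham surgery and ischemia/reperfusion (IR) in mouse kidney: Atf4, Ddit3, Trib3, Chac1, Asns, Psat1, Sesn2, Ddit4, Hspa5 and Xbp1. They were chosen by gene symbol, and these 10 genes took 11 of the 56748 rows of the expression table, because Ddit3 is listed under 2 identifiers. The second Ddit3 row, a gene model of 105 bases, had 0 reads in all 12 libraries and was left aside. RNA of whole kidney from male mice of 8 to 12 weeks was sequenced in 4 groups of 3 libraries. WT sham is wild type with the surgery but no clamping. WT IR is wild type with both renal pedicles clamped for 30 min and kidneys taken 24 h after the clamps came off, a model of acute kidney injury. The cKO sham and cKO IR groups had the same surgeries in mice whose Krt20, a keratin gene, was deleted in renal proximal tubular cells. The Cre line behind that deletion is not given in the sources used here. The labels' extraction text speaks of retinas although the tissue field gives kidney. Of 7 retina genes none reached the expression filter, their summed level was 0.145 to 0.618 FPKM (read fragments per length of gene model and per size of library), and Rcvrn was at 0 in every library. Nothing in the labels ties each library to its own animal, so p-values describe only how libraries of a group vary, which may be technical.

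The integrated stress response begins with kinases that phosphorylate the translation factor eIF2 when amino acids run short, haem is lacking, a virus is sensed or proteins misfold in the endoplasmic reticulum (ER). Translation as a whole then slows, while the mRNA of the transcription factor ATF4 is translated more efficiently. ATF4 switches on genes of amino acid supply and, with its partner CHOP (the product of Ddit3), genes linked to cell death. The unfolded protein response adds 2 arms from the ER membrane: IRE1 splices Xbp1 mRNA into the form that encodes an active transcription factor, and ATF6 is cut in the Golgi and moves to the nucleus, where it raises chaperones such as BiP, the product of Hspa5. In the kidney the proximal tubule depends on oxygen for transport and holds a large ER, and both responses are known from ischemic injury. The values here are RNA levels of whole genes. They hold neither ATF4 translation nor the splice forms of Xbp1, and in whole kidney fewer cells of a type and less RNA per cell cannot be told apart.

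The sequences upstream of 3 of the genes hold matches to elements through which these pathways are known to act. They are printed because the match lies wholly before the start. Atf4, Ddit3 and Psat1, described further on, were also higher after IR in both genotypes and held no match. Each line gives the 250 bases before the transcription start, 5′ to 3′ along the gene, from the RefSeq promoter table on GRCm38.p6, with the motif match in capitals. They lie at chr2:34771840-34772089 on the plus strand for Hspa5, chr6:7693210-7693459 on the minus strand for Asns and chr2:119350992-119351241 on the plus strand for Chac1.
Hspa5: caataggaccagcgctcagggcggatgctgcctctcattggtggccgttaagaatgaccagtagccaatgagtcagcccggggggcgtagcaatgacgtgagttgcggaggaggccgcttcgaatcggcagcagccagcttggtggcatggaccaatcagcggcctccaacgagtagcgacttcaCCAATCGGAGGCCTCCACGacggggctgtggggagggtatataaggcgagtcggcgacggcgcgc
Asns: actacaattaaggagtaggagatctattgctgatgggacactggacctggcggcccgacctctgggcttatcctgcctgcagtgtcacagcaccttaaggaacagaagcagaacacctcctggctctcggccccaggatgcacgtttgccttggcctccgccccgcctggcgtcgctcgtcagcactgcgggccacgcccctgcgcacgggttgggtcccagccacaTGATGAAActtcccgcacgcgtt
Chac1: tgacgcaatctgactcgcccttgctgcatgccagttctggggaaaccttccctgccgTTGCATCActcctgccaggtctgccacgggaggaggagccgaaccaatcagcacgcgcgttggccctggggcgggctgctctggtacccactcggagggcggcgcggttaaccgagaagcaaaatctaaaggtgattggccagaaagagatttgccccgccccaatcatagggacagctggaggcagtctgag
The capitals in Hspa5 are the ER stress response element, searched on both strands as CCAAT, any 9 bases and CCACG, and they begin 65 bases before the start. Those in Asns and Chac1 match the core of the C/EBP-ATF response element, TGATGNAA, bound by ATF4 with C/EBP proteins. In Asns it begins 23 bases before the start on the gene's own strand, and in Chac1 193 bases before the start on the opposite strand. Over all 32851 windows of the table, which run from 250 bases before to 50 bases after a start, 3.97% held TGATGNAA and 0.119% held the ER stress response element. All 10 genes had a window, 11 in all, and TGATGNAA stood in those of Asns, Chac1 and Trib3, in Trib3 beginning 14 bases after the start. The ER stress response element stood in Hspa5 only among them. A second form of it (ATTGG, any base, CCACG), held by 0.0365% of windows, and TGACGTGG, held by 0.676%, matched none of the 11 windows. No match overlapped another. A match describes letters in this window and not a bound site.

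The libraries held 13187531 to 15962303 reads. Krt20 had 0 to 4 reads per library in the 3 WT sham libraries and 0 or 1 in cKO sham. It had 1714 to 2751 reads in WT IR and 869 to 1399 in cKO IR, with group means of 69.6 and 36.9 FPKM, and that difference between the IR groups was not called in limma (adjusted p = 0.132). Library 2 of WT IR stood apart from the others of its group on the first principal component of all tested genes, at 9.84 against 34.9 and 42.1, with sham libraries from -39.2 to -36.7. Its summed proximal tubule markers were 15574 FPKM, against 7671 and 6612 in the other WT IR libraries and 17671 to 25384 in sham. Results that rest on WT IR are therefore given without it where it matters. The 8 proximal tubule markers summed to 8803 to 11492 FPKM in cKO IR, and 7 of the 8 fell with IR in each genotype. A list of 6 tubular injury genes summed to 327 to 356 FPKM in WT sham, 6071 to 10378 in WT IR, 670 to 763 in cKO sham and 12284 to 13884 in cKO IR. Neutrophil markers summed to 1.81 to 3.16 FPKM in the sham libraries and 10.9 to 52.0 in the IR libraries. The 52.0 was in library 3 of WT IR, against 16.3 and 10.9 in the others of its group. Stroma markers summed to 180 FPKM in that library, against 85.2 and 54.4. In library 3 of cKO IR they summed to 238 FPKM, against 55.8 and 68.1 in the others of cKO IR. Library 3 of WT IR was the highest of its group for 6 of the 10 genes. The part of such shifts in the results that follow was not tested.

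IR raised most of the 10 genes in wild-type kidney. Atf4 itself, its targets Chac1 and Trib3, the 2 biosynthetic enzymes Asns and Psat1, the death-linked factor Ddit3 and the chaperone gene Hspa5 were all higher, by 1.93-fold (Atf4) to 5.76-fold (Asns) in mean FPKM. In limma on log2(FPKM + 1), with p-values adjusted by Benjamini-Hochberg over all 12868 tested genes, 7 of the 10 genes rose, 0 fell and 3 (Sesn2, Ddit4 and Xbp1) did not pass the threshold of 0.05. Of all tested genes 22.6% rose and 19.5% fell. Trib3 and Chac1 passed the filter of a mean of 1 FPKM only through the IR groups, so they had to be higher there. Without them 5 of 8 genes rose in wild type and 7 of 8 in cKO. The counts without overlap and the medians that follow include both. For the same 7 genes every WT IR library lay above every WT sham library, which held for 28.0% of all tested genes. The median difference over the 10 genes was 0.97 on the log2 scale, against 0.0053 over all tested genes. In cKO kidney 9 of the 10 rose with IR, 0 fell and only Sesn2 did not pass. There 27.8% of all tested genes rose and 23.1% fell, the 9 genes also had no overlap between cKO IR and cKO sham (32.6% of all tested genes were higher without overlap), and the median was 1.06 against 0.02. The 2 comparisons of IR with sham share no library, but the 4 groups were fitted together and share 1 estimate of the spread. Leaving out a library can therefore change p-values in a comparison that does not use it, while the differences there stay the same. Without library 2 of WT IR, 7 and 9 of the 10 genes were called.

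**Figure D1:**
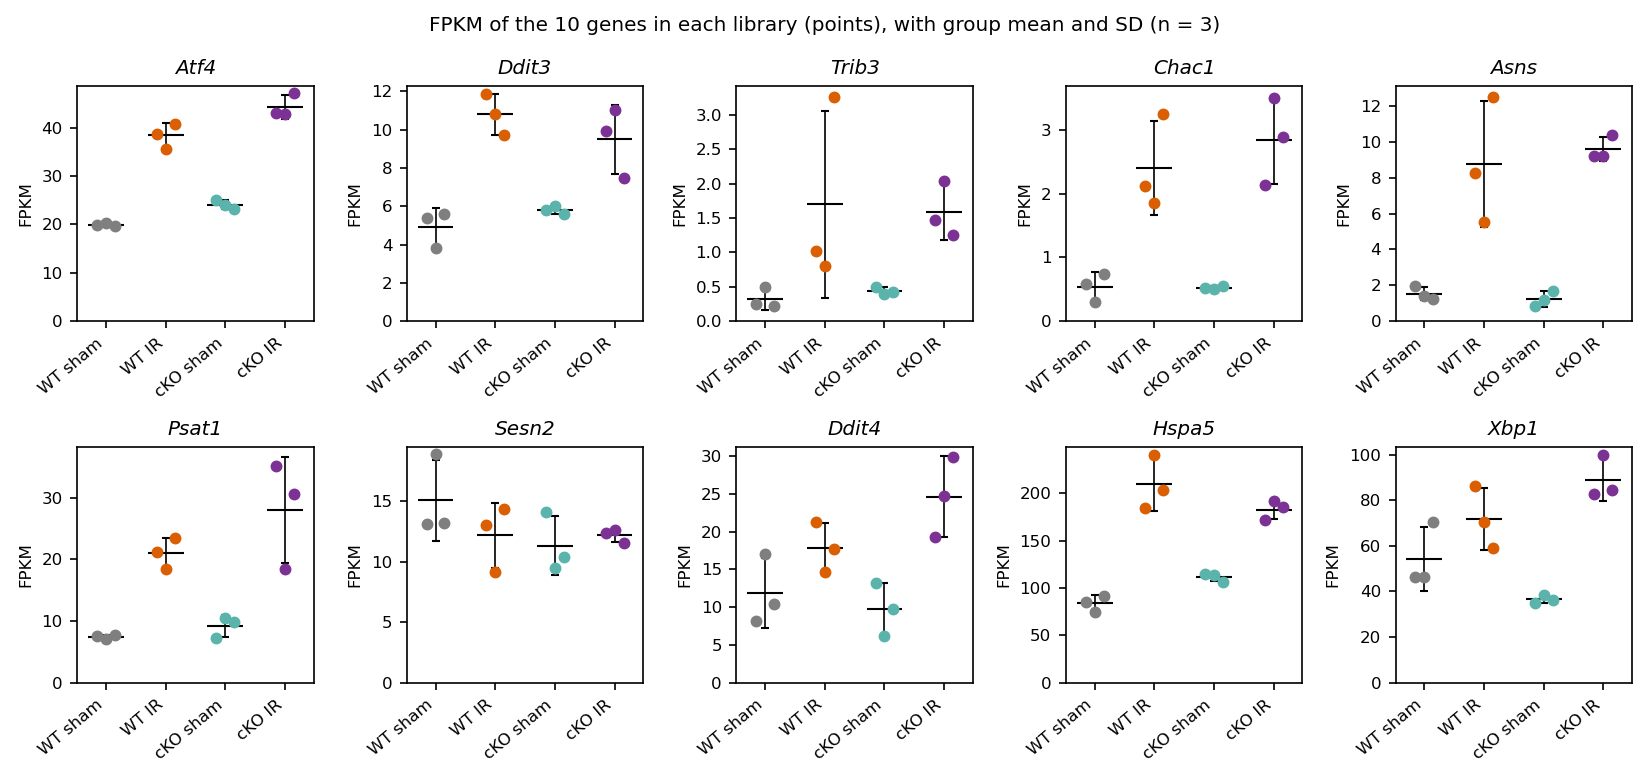
FPKM of each gene in the 12 libraries (points), by group on the horizontal axis, with the group mean and SD (n = 3) and a vertical axis from 0 that differs between panels. The IR libraries lie above the sham libraries of the same genotype for 7 genes in wild type and 9 in cKO, while all 12 Sesn2 libraries lie between 9.17 and 19.0 FPKM with sham and IR overlapping in each genotype.

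Among the transcription factors, Atf4 (ENSMUSG00000042406, chromosome 15) encodes ATF4, and its mRNA is translated more efficiently when eIF2 is phosphorylated. Its FPKM was 19.9, 20.2 and 19.7 in WT sham, 38.8, 35.7 and 40.9 in WT IR, 25.0, 24.0 and 23.2 in cKO sham and 43.0, 42.9 and 47.3 in cKO IR. The 4 groups did not overlap and stood in the order WT sham, cKO sham, WT IR, cKO IR. Atf4 rose 1.93-fold in wild type (log2 difference 0.91 ± 0.07, SE, adjusted p = 1.74e-05) and 1.84-fold in cKO (0.86 ± 0.07, adjusted p = 1.11e-05).

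Ddit3 (ENSMUSG00000025408, chromosome 10) encodes CHOP, which is induced by ATF4 and is linked to cell death under lasting ER stress. Its FPKM was 5.40, 3.80 and 5.59 in WT sham, 11.9, 10.8 and 9.71 in WT IR, 5.82, 6.02 and 5.61 in cKO sham and 9.94, 11.1 and 7.48 in cKO IR. Both IR groups lay above both sham groups, and library 3 of cKO IR was the lowest of the IR libraries. Ddit3 rose 2.19-fold in wild type (log2 1.0 ± 0.15, adjusted p = 0.000515) and 1.63-fold in cKO (0.61 ± 0.15, adjusted p = 0.00566). Ddit3 overlaps Mars1, a methionyl-tRNA synthetase gene on the other strand that stood at 11.7 to 24.4 FPKM. Without strand in the counting, which is not given in the sources used here, reads from the shared stretch cannot be told apart, and Mars1 also rose with IR, by 0.48 and 0.75 on the log2 scale.

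Xbp1 (ENSMUSG00000020484, chromosome 11), the substrate of IRE1, behaved unlike Atf4. Its FPKM was 46.4, 46.1 and 70.6 in WT sham, 86.3, 70.4 and 59.2 in WT IR, 35.1, 38.4 and 36.3 in cKO sham and 82.7, 99.9 and 84.7 in cKO IR. The 2 WT groups overlapped, because library 3 of WT sham was the highest of its group and library 3 of WT IR the lowest, whereas the cKO groups were far apart. In wild type the difference was 1.32-fold and did not pass (log2 0.41 ± 0.17, adjusted p = 0.0812), while in cKO Xbp1 rose 2.43-fold (1.26 ± 0.17, adjusted p = 0.000199). Over the alternatives the adjusted p in wild type ran from 0.0115 to 0.271. It passed without library 3 of WT sham (0.61, adjusted p = 0.0115) or library 3 of WT IR (0.54, adjusted p = 0.0418), scaled to plain read totals (0.56, adjusted p = 0.0148) and in voom on recovered reads (0.57, adjusted p = 0.0127). In library 3 of WT sham the red blood cell markers summed to 906 FPKM, against 281 and 316 in the other WT sham libraries, and the part of this in its Xbp1 level was not tested.

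Trib3 (ENSMUSG00000032715, chromosome 2) encodes a pseudokinase that binds ATF4 and CHOP and dampens their activity. Its FPKM was 0.244, 0.489 and 0.213 in WT sham, 1.02, 0.797 and 3.26 in WT IR, 0.497, 0.388 and 0.420 in cKO sham and 1.47, 2.04 and 1.25 in cKO IR, from 6 to 16 reads per sham library and 25 to 103 per IR library. The sham libraries all lay below the IR libraries, and library 3 of WT IR stood 4.09-fold above the lowest of its group. Trib3 rose in both genotypes, with ratios of mean FPKM of 5.38 and 3.65, although log2(FPKM + 1) shrinks differences at such low levels (0.93 ± 0.27, adjusted p = 0.0194, and 0.84 ± 0.27, adjusted p = 0.0254). Without library 3 of WT IR the difference in wild type was 0.54 (adjusted p = 0.0277). The call in wild type was lost without library 1 or library 3 of WT sham (adjusted p = 0.0555 and 0.0601). In cKO it was lost with no filter on low values (adjusted p = 0.0578), without any 1 of the cKO sham libraries and without library 1 or 2 of cKO IR, with an adjusted p of up to 0.0872.

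Chac1 (ENSMUSG00000027313, chromosome 2) encodes an enzyme that degrades glutathione and is a standard readout of ATF4. Its FPKM was 0.588, 0.296 and 0.737 in WT sham, 2.12, 1.86 and 3.25 in WT IR, 0.525, 0.504 and 0.545 in cKO sham and 2.14, 3.51 and 2.89 in cKO IR, from 7 to 16 reads per sham library and 45 to 89 per IR library. Every IR library was above every sham library. Chac1 rose 4.46-fold in wild type (log2 1.14 ± 0.18, adjusted p = 0.000741) and 5.43-fold in cKO (1.32 ± 0.18, adjusted p = 0.000173). Trib3 and Chac1 reached the filter of a mean of 1 FPKM over the 12 libraries (means of 1.01 and 1.58) only through the IR groups, since their sham means were 0.375 and 0.532 FPKM. Genes that pass in this way had to be higher after IR, so their calls add nothing to the count, and of the other 8 genes 5 rose in wild type and 7 in cKO.

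The 2 amino acid enzymes rose in both genotypes. Asns (ENSMUSG00000029752, chromosome 6), asparagine synthetase, was at 1.95, 1.39 and 1.24 FPKM in WT sham, 8.28, 5.55 and 12.6 in WT IR, 0.845, 1.18 and 1.71 in cKO sham and 9.22, 9.24 and 10.4 in cKO IR. The cKO IR libraries lay close together, whereas WT IR ran from 5.55 in library 2 to 12.6 in library 3, with all IR libraries above all sham libraries. Asns rose 5.76-fold in wild type (log2 1.90 ± 0.23, adjusted p = 0.000189) and 7.74-fold in cKO (2.26 ± 0.23, adjusted p = 3.29e-05).

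Psat1 (ENSMUSG00000024640, chromosome 19) encodes phosphoserine aminotransferase, the second step of serine synthesis. It stood at 7.54, 7.08 and 7.68 FPKM in WT sham, 21.1, 18.4 and 23.4 in WT IR, 7.16, 10.5 and 9.77 in cKO sham and 35.1, 18.5 and 30.6 in cKO IR. Both IR groups lay above both sham groups, and cKO IR overlapped WT IR but reached higher in libraries 1 and 3. The rise was 2.82-fold in wild type (log2 1.38 ± 0.21, adjusted p = 0.000574) and 3.07-fold in cKO (1.49 ± 0.21, adjusted p = 0.000201).

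Sesn2 and Ddit4, which both restrain the growth kinase complex mTORC1 under stress, did not follow the enzymes in wild type. Sesn2 (ENSMUSG00000028893, chromosome 4), sestrin 2, stood at 13.1, 19.0 and 13.2 FPKM in WT sham, 13.1, 9.17 and 14.4 in WT IR, 14.1, 9.52 and 10.4 in cKO sham and 12.4, 12.6 and 11.6 in cKO IR. Sham and IR overlapped in both genotypes, and the log2 differences with IR of -0.29 ± 0.19 in wild type (95% interval -0.70 to 0.12, adjusted p = 0.239) and 0.11 ± 0.19 in cKO (-0.30 to 0.53, adjusted p = 0.632) did not pass. Ddit4 (ENSMUSG00000020108, chromosome 10), also known as REDD1 and induced by hypoxia as well as by ATF4, stood at 8.10, 17.0 and 10.4 FPKM in WT sham, 21.2, 14.6 and 17.8 in WT IR, 13.2, 6.12 and 9.81 in cKO sham and 19.3, 24.7 and 30.0 in cKO IR. Library 2 of WT sham reached into the WT IR range, while the cKO groups did not overlap. Ddit4 rose 2.54-fold in cKO (log2 1.30 ± 0.29, adjusted p = 0.00384), and its 1.51-fold difference in wild type did not pass (0.60 ± 0.29, adjusted p = 0.125) unless library 2 of WT sham was left out (0.87, adjusted p = 0.0375).

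Hspa5 (ENSMUSG00000026864, chromosome 2), the gene of the ER chaperone BiP and the most abundant of the 10 per length, stood at 85.5, 74.6 and 91.6 FPKM in WT sham, 184, 240.0 and 204 in WT IR, 115, 113 and 106 in cKO sham and 171, 192 and 185 in cKO IR. The sham groups did not overlap, cKO sham being the higher, whereas the IR groups overlapped. Library 2 of WT IR was the highest of all for Hspa5 and the lowest of its group for 7 of the 10 genes. Hspa5 rose 2.50-fold in wild type (log2 1.31 ± 0.11, adjusted p = 2.66e-05) and 1.64-fold in cKO (0.71 ± 0.11, adjusted p = 0.000434).

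**Figure D2:**
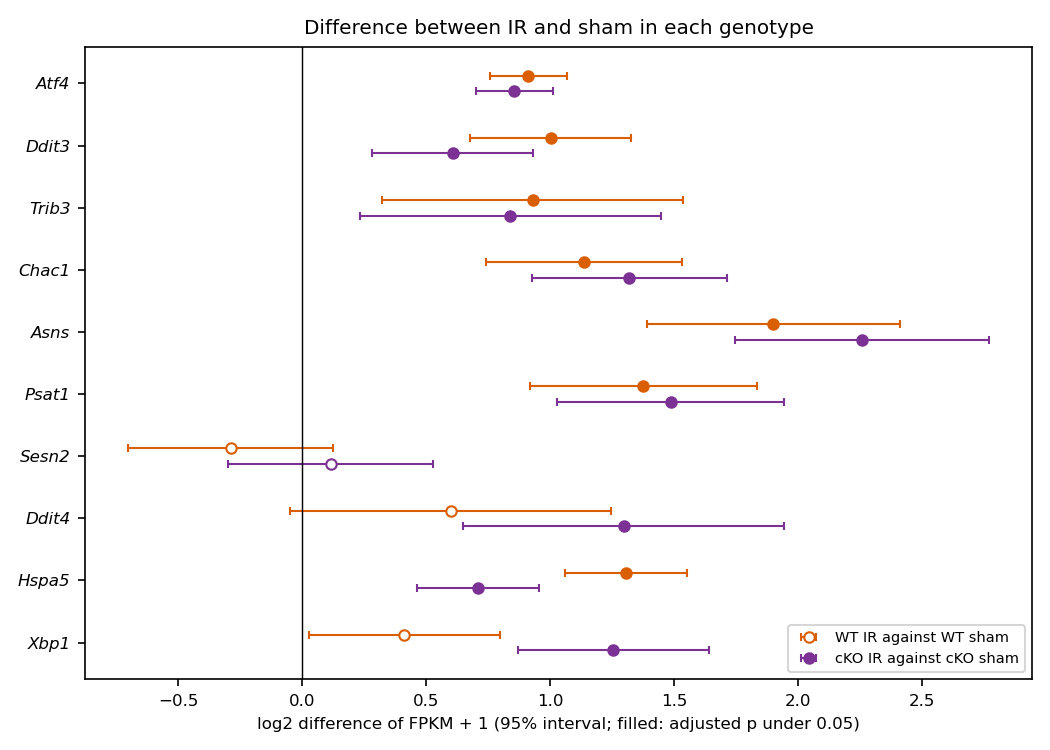
Difference of IR from sham on the log2(FPKM + 1) scale for each gene, with its 95% interval, in wild type and in cKO; filled points passed an adjusted p of 0.05 in limma and open points did not. Asns lies farthest to the right in both genotypes (1.90 and 2.26). The point estimates of the genotypes differ in opposite directions for Hspa5 (1.31 and 0.71) and Xbp1 (0.41 and 1.26), and neither interaction was called in limma.

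Levels can be ordered across genes because FPKM is scaled to gene length. In WT sham the group means ran Hspa5 83.9 ± 8.60 FPKM (SD, n = 3 here and below), Xbp1 54.4 ± 14.0, Atf4 19.9 ± 0.247, Sesn2 15.1 ± 3.34, Ddit4 11.8 ± 4.64, Psat1 7.43 ± 0.314, Ddit3 4.93 ± 0.986, Asns 1.53 ± 0.373, Chac1 0.540 ± 0.224 and Trib3 0.315 ± 0.151. Of neighbours in this order, Sesn2 and Ddit4 overlapped, and so did Chac1 and Trib3. In cKO IR the order was Hspa5 183 ± 10.5, Xbp1 89.1 ± 9.43, Atf4 44.4 ± 2.49, Psat1 28.1 ± 8.59, Ddit4 24.7 ± 5.32, Sesn2 12.2 ± 0.556, Asns 9.63 ± 0.685, Ddit3 9.49 ± 1.83, Chac1 2.85 ± 0.687 and Trib3 1.59 ± 0.406. There Psat1 overlapped Ddit4, and Asns overlapped Ddit3. Atf4 and the 2 ER genes thus kept the first 3 places in both, while Asns moved from well below Ddit3 to its level.

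The genotypes were compared first in the sham groups, where Krt20 itself was at 0 to 4 reads in either genotype. None of the 10 genes passed in limma (smallest adjusted p = 0.141), and 3 had an unadjusted p under 0.05: Atf4, Hspa5 and Xbp1. So did 1472 of all 12868 tested genes. Of all tested genes 1.10% were called. In 4 of the 10 genes the sham groups did not overlap, with Atf4, Ddit3 and Hspa5 higher and Xbp1 lower in cKO sham, where 25.1% of all tested genes had no overlap. Atf4 was 24.1 ± 0.905 FPKM in cKO sham against 19.9 ± 0.247 in WT sham (log2 0.26, 95% interval 0.10 to 0.42, adjusted p = 0.141). Hspa5 was 111 ± 4.48 against 83.9 ± 8.60 FPKM, 1.33-fold (0.41, 0.16 to 0.65, adjusted p = 0.141). Xbp1 was 36.6 ± 1.68 against 54.4 ± 14.0 FPKM, 0.674-fold (-0.53, -0.92 to -0.14, adjusted p = 0.248).

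Antibody-secreting cells hold much Xbp1, and the summed level of 9 markers of plasma and B cells was lower in cKO sham as well. They summed to 27.0 to 40.4 FPKM in WT sham, 5.27 to 8.14 in cKO sham, 6.86 to 13.8 in WT IR and 6.24 to 11.2 in cKO IR. Of the 9, 3 were tested and 2 of these were lower in cKO sham by the adjusted p. Igkc stood at 12.5 to 24.6 FPKM in the WT sham libraries and 0.259 to 2.06 in those of cKO sham, and Jchain at 1.91 to 2.10 and 0.109 to 0.327. Igha was at 6.39 to 9.24 and 0 to 0.206. Cd79a, Cd79b and Ms4a1 were lower as well, at levels of at most 1.32 FPKM. Ighm overlapped, at 2.90 to 4.44 and 3.14 to 3.86, as did Tnfrsf17, at 0 to 0.363 and 0 to 0.253, and Mzb1 lay the other way, at 0.372 to 0.792 and 0.790 to 1.69. The part of these cells in the Xbp1 difference was not tested.

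Between the IR groups, cKO IR against WT IR, none of the 10 genes passed (smallest adjusted p = 0.238, for Atf4) and Atf4 alone had an unadjusted p under 0.05. Limma called 0% of all tested genes here, with 1926 at an unadjusted p under 0.05, and voom on recovered reads called 1. Atf4 was also the one gene of the 10 without overlap, against 16.0% of all tested genes. It was 44.4 ± 2.49 FPKM in cKO IR and 38.5 ± 2.59 in WT IR (log2 0.20, 95% interval 0.05 to 0.36). The intervals of the others covered 0: Hspa5 -0.43 to 0.06, Xbp1 -0.07 to 0.70, Ddit3 -0.51 to 0.14, Psat1 -0.10 to 0.82, Ddit4 -0.21 to 1.09, Chac1 -0.22 to 0.57, Asns -0.33 to 0.69, Sesn2 -0.39 to 0.43 and Trib3 -0.57 to 0.65. These intervals are wide for the more variable genes, so a miss of the threshold does not show equal levels.

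The question whether IR acted differently in the 2 genotypes was put to the interaction term, the effect of IR in cKO minus that in wild type. None of the 10 genes passed, where 0.878% of all tested genes were called. An unadjusted p under 0.05 was found for 2 of the 10, and for 1878 of all 12868 tested genes. For Hspa5 the effect was smaller in cKO by the point estimate, 0.71 against 1.31 (difference -0.60, 95% interval -0.95 to -0.25, limma's adjusted p = 0.107). Over the alternatives its adjusted p ran from 0.0476, in voom on recovered reads (-0.69), to 0.246. Without library 2 of WT IR, the highest library for Hspa5, the interaction was -0.495 (adjusted p = 0.119). That was the smallest interaction in size for Hspa5 over the alternatives. For Xbp1 the effect was larger in cKO, 1.26 against 0.41 (0.85, 0.30 to 1.39, limma's adjusted p = 0.139, range over the alternatives 0.109 to 0.268). Hspa5 had a log2 difference of cKO from wild type of 0.41 in sham and -0.19 in IR, and Xbp1 of -0.53 and 0.32. Without library 2 of WT IR the Hspa5 difference in IR was -0.0865. The interaction reuses the libraries of the genotype comparisons above, so it is no second observation. For Atf4 the effects were 0.86 and 0.91 (difference -0.06, -0.28 to 0.16, adjusted p = 0.850). For Ddit3 the difference was -0.40 (-0.85 to 0.06), for Ddit4 0.70 (-0.22 to 1.61), for Sesn2 0.40 (-0.18 to 0.99) and for Asns 0.36 (-0.37 to 1.08).

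**Figure D3:**
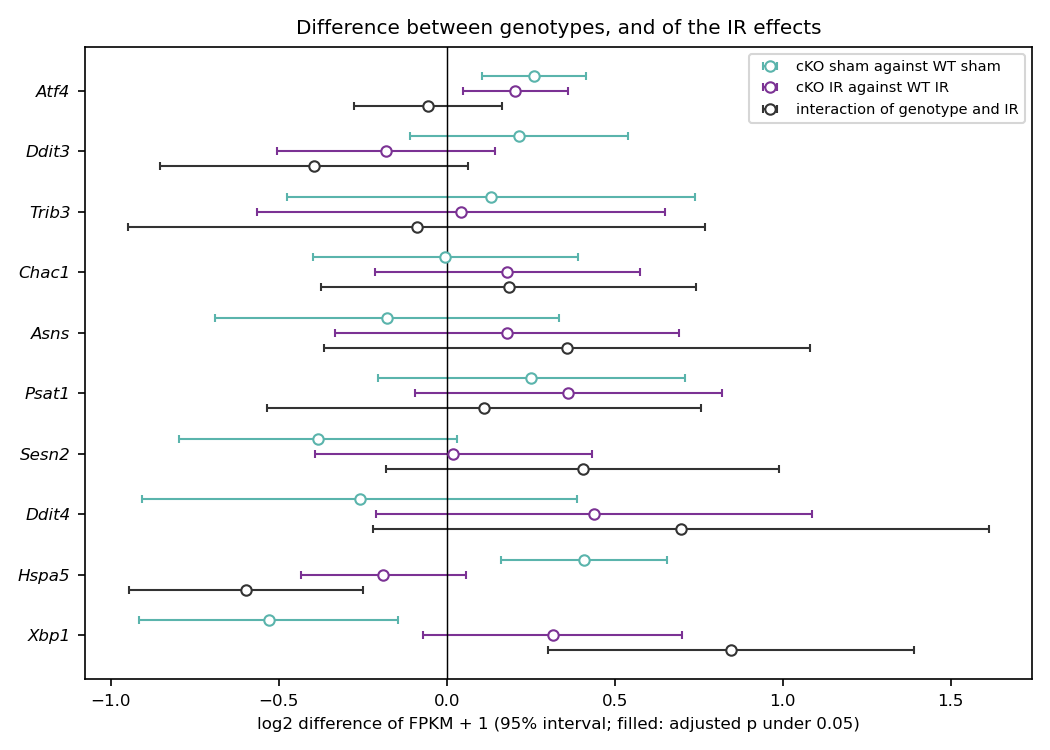
Difference of cKO from WT on the log2(FPKM + 1) scale for each gene, with its 95% interval, in sham kidney, in IR kidney and as the interaction; a filled point would mark an adjusted p under 0.05 in limma. All points are open, and the intervals of Atf4, Hspa5 and Xbp1 in sham, of Atf4 in IR and of Hspa5 and Xbp1 in the interaction lie clear of 0.

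The wider pathway was described by 9 lists of 103 genes, of which 94 were tested. Of these, 6 (Mthfd2, Mthfd1l, Aldh18a1, Slc7a5, Tnfrsf10b and Bbc3) had a sham mean under 1 FPKM and passed the filter only through the IR groups, so that they had to be higher there. They are left out of the counts with IR that follow. Of the other 88 genes, 51 rose and 8 fell in wild type, and 51 rose and 9 fell in cKO, beside the 22.6% and 27.8% of all tested genes that rose and the 19.5% and 23.1% that fell. The genes of amino acid supply were mostly higher. All 12 aminoacyl-tRNA synthetases, which charge tRNAs, rose in wild type and 11 in cKO, with medians of 0.52 and 0.69 on the log2 scale. Iars rose by 0.96 and 1.13, Gars by 0.70 and 0.92, and Yars by 0.49 and 0.58. Of 6 amino acid transporters 4 rose in each genotype and 0 fell. Slc38a2, a carrier of small neutral amino acids, rose by 1.03 and 1.65, and Slc1a5, a glutamine carrier, by 0.39 and 0.62. The other 2 depended on single libraries in wild type: Slc7a1 lost its call without any 1 of the WT sham libraries or without library 1 or 3 of WT IR, and Slc1a4 without library 2 or 3 of WT sham or library 1 or 2 of WT IR. With Slc7a5, a leucine carrier at 0.766 FPKM in WT sham and 2.84 in WT IR, the transporters called in wild type numbered 5, and 3 to 5 when 1 library was left out.

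The enzymes of amino acid and folate metabolism split. Of 7, 4 (57.1%) rose and 3 (42.9%) fell in wild type, beside 22.6% and 19.5% of all tested genes. In cKO 3 (42.9%) rose and 3 (42.9%) fell, beside 27.8% and 23.1%. Gpt2, an alanine aminotransferase, rose by 1.46 and 1.13, Phgdh by 1.54 and 0.93, and Got1 by 0.42 and 0.35. Psph rose in wild type only, by 0.39. In wild type Psph lost its call without library 1 or 2 of WT sham or library 3 of WT IR. Got1 lost it there without library 1 of WT sham or library 1 of WT IR. In cKO Phgdh lost its call without library 1 or 3 of cKO sham, library 3 of cKO IR or the filter on low values. Got1 lost it there without library 1 or 3 of cKO sham or library 1 of cKO IR. Mthfd2 and Mthfd1l, of mitochondrial folate metabolism, are among those that passed the filter through IR and are given as levels only. In wild type Mthfd2 was at 0.863 ± 0.240 FPKM after sham surgery and 4.51 ± 1.53 after IR, and in cKO at 1.02 ± 0.145 and 4.64 ± 1.07. Mthfd1l was at 0.459 and 2.77 FPKM in wild type and at 0.746 and 2.93 in cKO. The 3 that fell in both genotypes were Shmt2, a mitochondrial serine hydroxymethyltransferase, and Cth and Cbs of the transsulfuration pathway. Cbs went from 32.1 ± 1.87 to 7.90 ± 4.48 FPKM in wild type (-2.02) and from 33.5 ± 3.06 to 7.70 ± 1.26 in cKO (-1.99). The proximal tubule markers given above fell in the same libraries, and their part in this was not tested.

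Partner factors and further targets of ATF4 also rose in large part. Of 11, 8 (72.7%) rose in each genotype, beside 22.6% and 27.8% of all tested genes, and 0 fell. The medians were 0.94 and 1.79. Among them Cebpb rose by 0.69 and 1.95. In wild type Cebpb lost its call without library 1 or 3 of WT sham or library 1 of WT IR. Gdf15, a secreted stress cytokine, went from 3.90 ± 1.96 to 32.4 ± 8.45 FPKM in wild type (log2 2.82, adjusted p = 5.00e-05) and from 3.96 ± 0.372 to 60.8 ± 11.2 in cKO (3.63, adjusted p = 5.94e-06). Atf3, a stress transcription factor, rose by 2.16 and 2.64, Eif4ebp1, an inhibitor of cap-dependent translation, by 1.84 and 2.70, and Cdkn1a, the cell cycle inhibitor p21, by 2.11 and 3.15. Several of these answer to other pathways too, such as p53 for Cdkn1a. In cKO IR against WT IR none of the 94 genes passed. Cebpb, a partner of ATF4, was at 38.7 ± 2.78 against 19.8 ± 5.03 FPKM there (0.96, adjusted p = 0.135), and Gdf15 differed by 0.90 (adjusted p = 0.188). The interaction for Cebpb was 1.26 (adjusted p = 0.0583), and it passed with a minimum of 5 FPKM (adjusted p = 0.0464), without library 1 of WT sham (0.0445) or without library 1 of WT IR (0.0351).

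**Figure D4:**
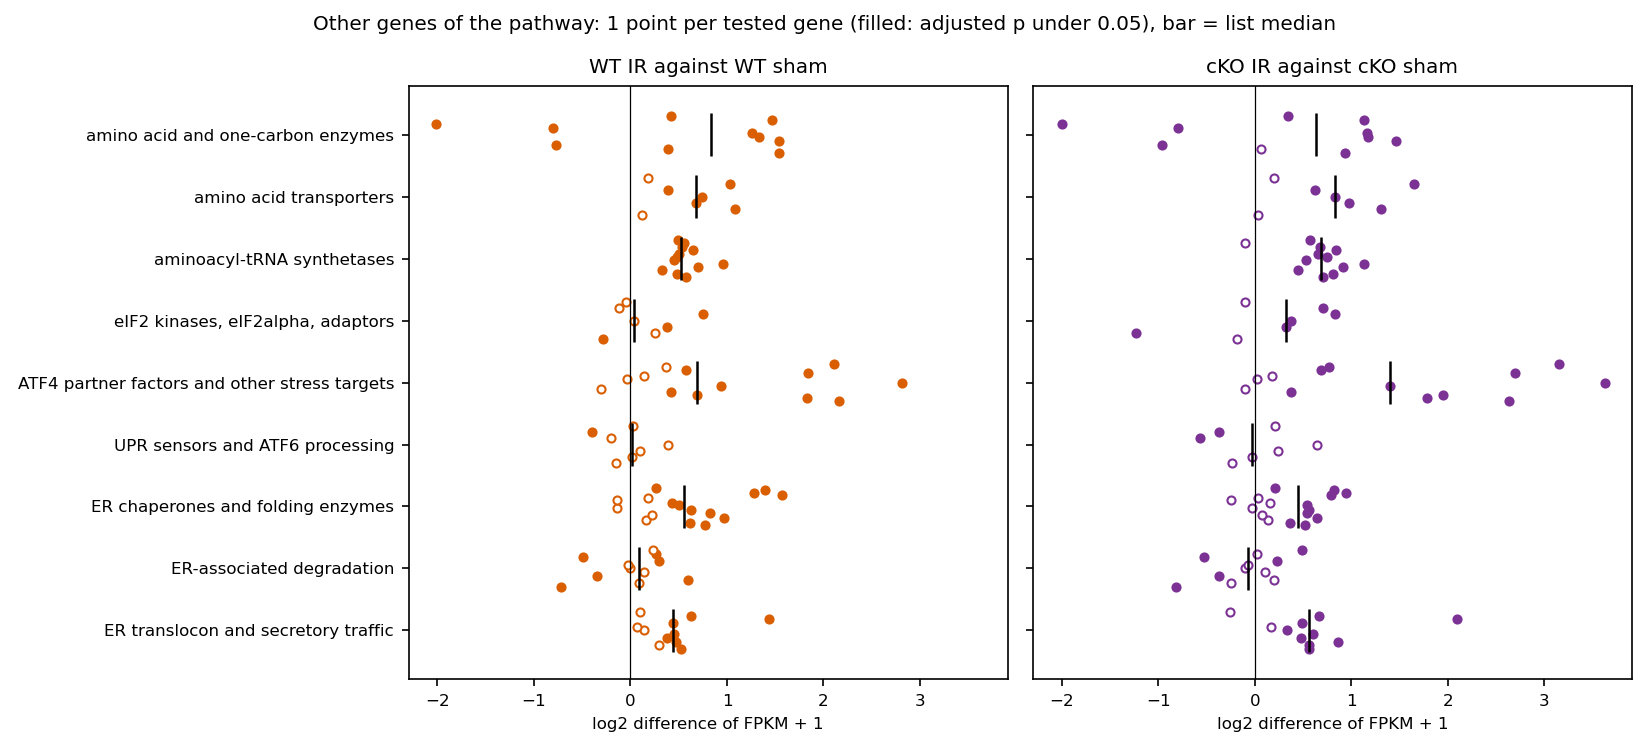
Each point is 1 tested gene of a pathway list, placed by its difference of IR from sham on the log2(FPKM + 1) scale, with wild type and cKO in separate panels; filled points passed an adjusted p of 0.05 in limma and the bar is the median of the list with all its tested genes. The tRNA synthetases lie almost wholly to the right of 0, the sensors sit around 0, and the enzymes reach to -2.02 on the left, for Cbs.

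Among the kinases and sensors that start these pathways some rose and some fell. Of 7 genes for eIF2 kinases, eIF2α and the phosphatase adaptors, 2 (28.6%) rose and 1 (14.3%) fell in wild type, beside 22.6% and 19.5% of all tested genes, and 4 (57.1%) rose and 1 fell in cKO, beside 27.8% and 23.1%. Eif2s1, which encodes eIF2α, rose by 0.75 and 0.84, and Eif2ak3, the ER kinase PERK, rose by 0.37 and 0.32. Eif2ak1, the haem-regulated kinase, fell by 0.28 in wild type, but not without library 3 of WT IR (adjusted p = 0.0522). In cKO Eif2ak4, the amino acid sensor GCN2, rose by 0.38, Ppp1r15a, which brings a phosphatase back to eIF2α, rose by 0.71, and Eif2ak2, the kinase PKR, fell by 1.23. Eif2ak2 stood at 14.7 ± 2.25 FPKM in cKO sham against 6.74 ± 3.17 in WT sham (1.09, adjusted p = 0.0864). That sham difference passed without library 1 of WT sham (1.40, adjusted p = 0.00508), where the interaction for Eif2ak2 passed too (-1.80, adjusted p = 0.00798). The sham difference also passed without library 2 of WT IR (adjusted p = 0.0456). That library is not in the comparison, and the difference was still 1.09. The interaction for Ppp1r15a, 0.83 (adjusted p = 0.0596), passed without library 1 of WT IR (0.97, adjusted p = 0.0185). Of 7 tested sensors and processing genes of the unfolded protein response 0 rose, 1 (14.3%) fell in wild type and 2 (28.6%) fell in cKO. When 1 library was left out, 0 or 1 rose in cKO: Atf6b without library 1 of WT IR and Mbtps2 without library 1 of cKO IR. Mbtps1, the site-1 protease that cuts ATF6, fell by 0.40 and 0.37 in wild type and cKO, and Creb3l2 fell by 0.57 in cKO.

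ER chaperones and the entry machinery rose with Hspa5. Of 16 chaperones and folding enzymes 11 (68.8%) rose in wild type and 10 (62.5%) in cKO, beside 22.6% and 27.8% of all tested genes. Of the 16, 0 fell, and the medians were 0.56 and 0.45. Creld2 rose by 1.40 and 0.82, Sdf2l1 by 1.57 and 0.79, Manf by 1.28 and 0.95, and Hyou1 by 0.97 and 0.64. Their differences in the interaction, -0.58 for Creld2 (adjusted p = 0.138) and -0.78 for Sdf2l1 (adjusted p = 0.109), did not pass. Between the sham groups Creld2 differed by 0.45 (adjusted p = 0.136). It passed without library 2 of WT IR (adjusted p = 0.0202), which is not in this comparison. The difference was still 0.45, and only the shared spread and the p-values changed. Of 11 tested translocon and traffic genes 7 (63.6%) rose in wild type and 9 (81.8%) in cKO, led by the signal peptidase subunit Spcs3 (1.44 and 2.10). Its interaction, 0.66 (adjusted p = 0.206), passed without library 3 of WT IR (0.85, adjusted p = 0.0488).

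Genes of ER-associated degradation were called in shares near those of all tested genes. Of 11 tested, 3 rose (Syvn1, Derl2 and Selenos) and 3 fell (Edem1, Os9 and Herpud1) in wild type. Each is 27.3%, beside 22.6% and 19.5% of all tested genes. In cKO 2 rose (Derl2 and Vcp), and the 3 that fell were again Edem1, Os9 and Herpud1. These are 18.2% and 27.3%, beside 27.8% and 23.1% of all tested genes. Herpud1, an ER membrane protein of this pathway usually raised by ER stress, went from 142 ± 26.2 to 86.2 ± 21.8 FPKM in wild type (log2 -0.72, adjusted p = 0.0231) and from 130.3 ± 21.2 to 74.1 ± 18.6 in cKO (-0.82, adjusted p = 0.0102). In wild type Herpud1 lost its call without library 2 or 3 of WT sham or library 1 or 3 of WT IR, with an adjusted p of up to 0.0880. Selenos (0.27, adjusted p = 0.0483) lost its call in wild type whichever library was left out except library 3 of WT IR. Leaving out a cKO library did not change its difference. In cKO Derl2 lost its call without library 1 or 3 of cKO sham or library 1 or 2 of cKO IR.

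Counts of these lists shifted with the scaling. Plain read totals moved the median difference of all tested genes in wild type by 0.13 on the log2 scale and gave 4168 genes higher and 1844 lower, where the deposited scale gave 2910 and 2514. Under plain totals, in wild type, 14 chaperones, 10 translocon genes and 5 degradation genes rose, 3 degradation genes fell, and neither Eif2ak1 nor Mbtps1 fell. With the medians of the libraries made equal, 2671 of all 12868 tested genes rose and 2789 fell in wild type. In cKO 3188 rose and 3315 fell. Degradation genes then rose and fell in numbers of 2 and 3 in wild type and 1 and 4 in cKO. Also in cKO 1 chaperone and 1 translocon gene fell. Without library 2 of WT IR 2 chaperones fell in wild type (P4hb and Dnajc3), and in cKO Dnajc3 and the translocon gene Sec23b fell. Their cKO differences were unchanged, since that library is not in the cKO comparison. The 7 and 9 calls among the 10 genes held their direction under each of these.

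Of the 94 tested pathway genes 1 was called between the sham groups, a share near the 1.10% of all tested genes called there. Eif2ak2 and Creld2, described above, were called there when certain libraries were left out. Wars, the tryptophanyl-tRNA synthetase, which is also induced by interferon, stood at 19.8 ± 0.701 FPKM in cKO sham and 11.3 ± 0.423 in WT sham (log2 0.76 ± 0.10, adjusted p = 0.00357). It rose to 17.2 ± 2.61 in WT IR and stood at 18.3 ± 0.779 in cKO IR, and it was the one synthetase of 12 that did not pass with IR in cKO (-0.11, adjusted p = 0.380). The interaction for Wars was -0.66 (adjusted p = 0.0535). It passed with a minimum of 5 FPKM (adjusted p = 0.0424), with the medians of the libraries made equal (-0.68, adjusted p = 0.0417) and without library 2 of WT IR (-0.78, adjusted p = 0.00776).

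For 4 of the genes the 3 tested genes with the most similar profile were found, by the mean absolute difference of log2(FPKM + 1), each gene centred on its own mean, over the 12 libraries. For Hspa5 they were Creld2 (0.0860), Hyou1 (0.117) and Gins2 (0.123), where the median over all tested genes was 0.517. Creld2 and Hyou1 are ER proteins, a chaperone-like factor and a large chaperone. For Atf4 they were Ostc (0.0541), Nop2 (0.0549) and Ywhag (0.0707), against a median of 0.457. Ddit3 was nearest to Dtymk (0.114), Syne2 (0.118) and Gmds (0.123), against 0.431, and Chac1 to Plet1 (0.119), Ranbp1 (0.123) and Ctxn1 (0.124), against 0.619. These values are a description over 12 libraries that share the same 4 groups, with no test.

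**Figure D5:**
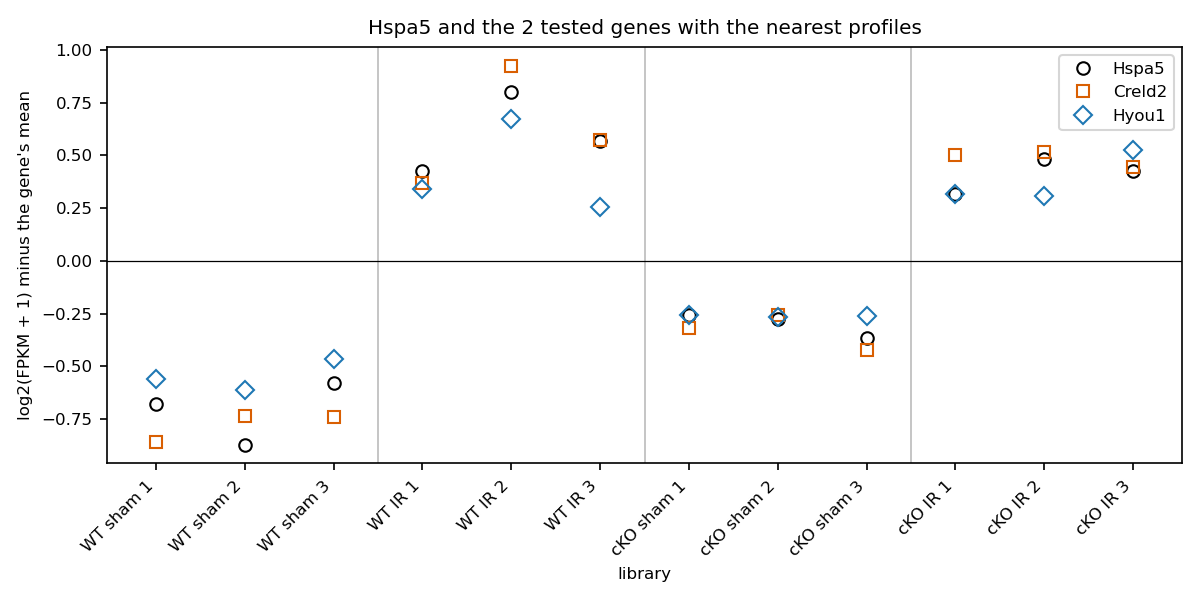
Centred log2(FPKM + 1) of Hspa5, Creld2 and Hyou1 in each of the 12 libraries on the horizontal axis. All 3 genes are lowest in the WT sham libraries, and the highest point of each is in library 2 of WT IR.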

How the data were processed

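The values are FPKM as deposited by the authors, in 1 table with 1 column per library and a length per gene model. Per the submitters' processing notes, HISAT2 2.2.1 was used and the builds mm8 and mm9 were named; how reads were counted, and on which annotation, is not given in the sources used here. Coordinates in the table name no build and are not printed. FPKM times length gave whole reads in each library (100% of values within 0.001 of a whole number), so the depth is known, and the library size behind the deposited FPKM was 0.933 to 1.126 times the read sum.

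Groups came from titles and descriptions. Log2(FPKM + 1) of the 12868 genes whose mean over the 12 libraries reached 1 FPKM was fitted in limma 3.58.1 (R 4.3.3) with 1 mean for each of the 4 groups and variances moderated along a trend (8 residual and 2.59 prior degrees of freedom). Tests were two-sided, adjusted by Benjamini-Hochberg over all tested genes, and called under 0.05. FPKM was used rather than reads for the main test, with voom on recovered reads beside it. The fit was tested on simulated data. The labels give no batch. The labels name nothing that same-numbered libraries share, so the main fit held no replicate block. Same-numbered libraries of compared groups had correlations of deviations from -0.123 to 0.401, over 0.1 in 4 of 12 pairs. The highest was between library 3 of WT IR and library 3 of cKO IR. Whether the numbers pair libraries cannot be told from these values. Alternatives were a pseudocount of 0.1, a minimum of 5 FPKM or no filter, 2 other scalings, voom, a replicate block and leaving out each library. No libraries held identical reads.

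The 10 genes, the 9 pathway lists and the marker lists were chosen with earlier results of these data known. Beyond the 10, the text names up to 4 genes per list and comparison with the smallest p-values. It names genes of main counts of 5 or fewer and of some counts under alternatives, Krt20, and the 3 nearest profiles for 4 genes. Mars1 was named for its overlap with Ddit3. Leaving list genes with a sham mean under 1 FPKM out of the counts with IR was decided after seeing the data.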

Additional observations from a re-analysis of the deposited data

How the results depend on the processing

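Of 940 values of the 10 genes under 19 alternatives, 905 kept their direction and their side of the threshold. Part of this was fixed in advance: the replicate block, and leaving out a library outside a comparison, cannot change the difference, only its p-value. Of 16 calls, which include those of Trib3 and Chac1, 14 held in every alternative that gave a value. Trib3 lost its call in both genotypes in some. Trib3 and Chac1 have no value with a minimum of 5 FPKM. Low reads limit both, and 3 libraries a group limit the genotype comparisons.

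Genes called in cKO sham against WT sham numbered 142, and 55 to 208 when 1 library was left out. Those in cKO IR against WT IR numbered 0, and 1 with a pseudocount of 0.1, a minimum of 5 FPKM, plain totals or voom, 9 with no filter and 0 to 12 without 1 library. The interaction called 113 (38 higher, 75 lower), 41 to 150 without 1 library, and 28 higher and 131 lower in voom, where it called 1 of the 10 genes, Hspa5. With the replicate block, though the labels name nothing that same-numbered libraries share, it called 73. The block left 7 and 9 of the 10 genes called with IR and changed no call among them. Where the library left out lay outside a comparison, only the shared spread and the p-values could shift. The cause of the other shifts was not tested.

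Sign changes touched only differences that were not called. In cKO sham against WT sham Chac1 (-0.0044) was 0.031 with a pseudocount of 0.1, 0.010 under plain totals, 0.094 in voom and -0.12 to 0.088 without 1 library, and Ddit4 was -0.49 to 0.015. In cKO IR against WT IR Sesn2 was -0.030 under plain totals, -0.026 in voom, -0.016 with equal medians and -0.16 to 0.14 without 1 library, Trib3 -0.20 to 0.43 and Asns -0.080 to 0.44. In the interaction, Trib3 was -0.33 to 0.30 and Psat1 -0.071 to 0.37.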

Other observations

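The ratio of Xbp1 to Hspa5 within a library does not depend on how libraries are scaled against each other, and was taken up after the values of both genes had been seen. It was 0.543, 0.618 and 0.770 in WT sham, 0.468, 0.293 and 0.290 in WT IR, 0.306, 0.340 and 0.342 in cKO sham and 0.482, 0.521 and 0.458 in cKO IR. WT IR lay below WT sham, whereas cKO IR lay above cKO sham. The ratio of Ddit3 to Atf4 was 0.188 to 0.284 in WT sham, 0.238 to 0.306 in WT IR, 0.233 to 0.251 in cKO sham and 0.158 to 0.258 in cKO IR, so its 4 groups overlapped. Neither ratio was tested.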
